A study of Mus musculus with 3 samples.

Results

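UDP-glucuronosyltransferases are membrane enzymes of the endoplasmic reticulum that transfer glucuronic acid from UDP-glucuronic acid onto bilirubin, steroids, bile acids and drugs. The glucuronides that result are soluble in water and leave the liver in bile or blood. The Ugt1a enzymes come from 1 locus in which separate first exons are joined to common last exons, whereas the Ugt2 genes are separate genes and the Ugt3 genes encode UDP-glycosyltransferases that, in human, use other UDP-sugars. The family described here held 10 listed genes, Ugt1a1, Ugt2a3, Ugt2b1, Ugt2b5, Ugt2b34, Ugt2b35, Ugt2b36, Ugt2b38, Ugt3a1 and Ugt3a2. A gene was taken from the array where the platform annotation gave a probe set its symbol and no other. This held for 9 of the 10, out of 18193 genes on the array with such a probe set, and they were read by 11 probe sets. The exception was Ugt1a1, for which the array had 3 probe sets, each listing 8 Ugt1a genes together.

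The livers came from 3 mice of mixed strain, aged 3 months, taken 1 week after an intraperitoneal injection of 400 microL of virus. Of these, 2 mice received the control virus MUP-EGFP-AAV8 and 1 received MUP-iCre-AAV8, which carries the Cre recombinase. AAV8 is an adeno-associated virus, and the labels do not spell out MUP or say which cells expressed the recombinase. The series design has Hnf4a-floxed mice under both viruses, while the sample labels give the control livers the genotype wild type and the Cre liver HNF4alpha knockout. Virus and genotype therefore cannot be told apart, and every Cre value rests on 1 mouse and 1 array. Hnf4a encodes HNF4alpha, a nuclear receptor on which many hepatocyte genes depend.

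Values are log2 expression (RMA, a summary of the probes of a set), and a difference is Cre minus the mean of both controls. A gene rose or fell where limma's adjusted p was under 0.05 over the 12735 genes whose mean reached the filter value of 3.77. An exact permutation test of 2 arrays against 1 cannot give a p below 0.333. The brightest Hnf4a probe set was at 11.91 and 11.96 under control virus and 11.38 under Cre virus, a difference of -0.55 ± 0.10 SE (limma adjusted p = 0.0401), and the other Hnf4a probe sets were lower as well, by -1.18 to -0.61. The call on Hnf4a did not hold in 4 of 10 other settings, where its adjusted p reached 0.184. Where its probes lie relative to the floxed part of the gene was not examined, so these values do not check the deletion itself. Hepatocyte markers stayed high on each array, with Alb between 14.62 and 14.75 and Ttr between 14.50 and 14.63. But 2 of 8 fell (5.21% of all fitted genes fell), Apoa2 by 1.81 and Apoh by 0.74 on the log2 scale. The median of the 8 was -0.11 against 0.09 over all fitted genes. Their log2 summed signal was 17.09 and 17.12 under control virus and 16.85 under Cre virus. The Y-linked gene Eif2s3y was at 7.70 and 7.75 under control virus and 8.07 under Cre virus, and Xist did not reach the filter value on any of the arrays. The gap between the 3′ and 5′ probe sets for Gapdh, a measure of RNA integrity, was 0.45 and 0.82 under control virus and 1.04 under Cre virus. For beta-actin the gap was wider, 1.71 and 2.06 under control virus and 2.39 under Cre virus. Of 8 macrophage markers, 7 were above both controls in the Cre liver (49.7% of all fitted genes were). Their log2 summed signal was 9.84 and 10.45 under control virus and 10.80 under Cre virus. Only 1 of the 8, Marco, rose (6.71% of all fitted genes rose). The others did not pass, among them Clec4f (0.55), Csf1r (0.16) and Cd68 (0.09). Among bile duct markers Sox9 rose by 2.35, from 3.87 and 4.82 under control virus, 0.95 apart, to 6.69 under Cre virus. Epcam (0.28) did not pass, and Krt19, Krt7 and Cftr were too dim to be fitted. Of the fitted stellate, endothelial and lymphocyte markers (7, 7 and 4), 0 passed by limma (1, 2 and 1 at an unadjusted p under 0.05). The share of all fitted genes at that unadjusted cut was not counted, and it cannot be below the 11.9% that passed. Of those with a probe set (7, 7 and 6), 6, 5 and 3 were above both controls, against 49.7% of all fitted genes. The lymphocyte count includes markers too dim to be fitted. The part of RNA integrity or of these cell types in the differences below was not tested. In whole liver, fewer cells of a type and less RNA per cell cannot be told apart.

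The family split in the Cre liver. Of the 9 genes with a probe set of their own, 5 fell (5.21% of all fitted genes fell), namely Ugt3a2, Ugt2b38, Ugt3a1, Ugt2b1 and Ugt2a3. Another 2 rose (6.71% of all fitted genes rose), Ugt2b34 and Ugt2b35, and Ugt2b5 and Ugt2b36 did not pass. The differences ran from -4.52 to 0.97, with a median of -1.10 against 0.09 over all fitted genes. The 9 genes passed the filter also when it was set on the control arrays alone, so none entered through its Cre value.

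**Figure D1:**
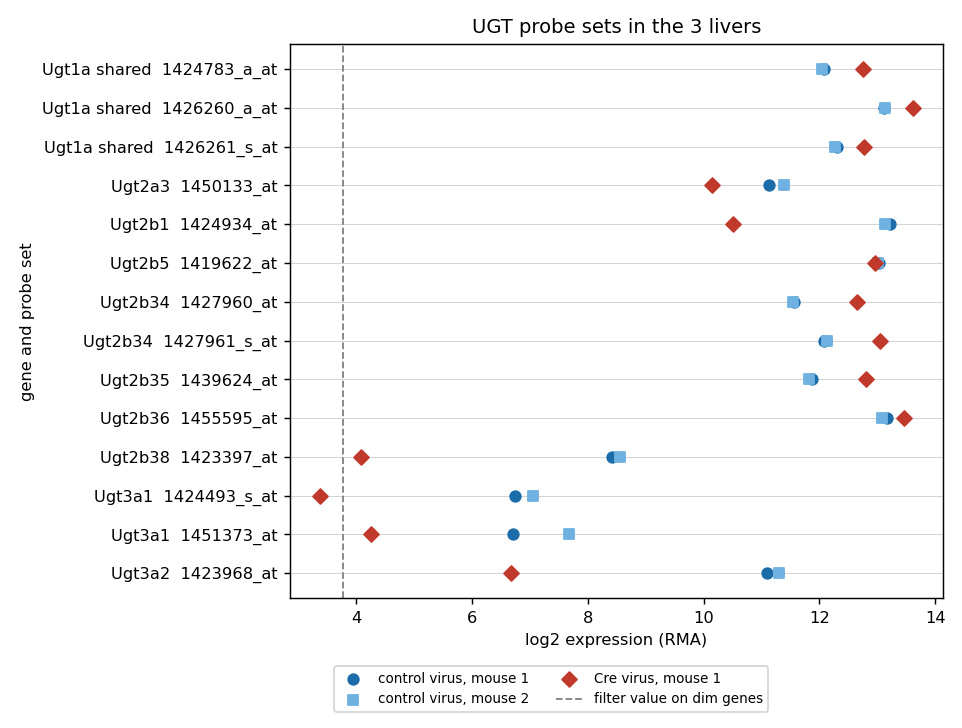
Log2 expression (x axis) of each UGT probe set (y axis) in the control virus livers (blue circle and square) and the Cre virus liver (red diamond), with the filter value as a dashed line. The Cre point lies far to the left for Ugt2b1, Ugt2b38, Ugt3a1 and Ugt3a2 (Ugt2b38 at 4.08 against 8.42 and 8.55), to the right for Ugt2b34, Ugt2b35 and the shared Ugt1a probe sets, and on top of the controls for Ugt2b5.

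The Ugt2 genes stand next to each other, and near relatives in this cluster gave different differences. RefSeq's GRCm38.p6 annotation places all 10 Ugt2 genes on chromosome 5 with no other protein-coding gene between them, and Ugt2b5 and Ugt2b38 have the most alike start regions of any 2 members. The 250 bases upstream of their annotated starts are shown because Ugt2b38 fell while Ugt2b5 did not pass. Both are on the minus strand and are written 5′ to 3′, at chr5:87140341-87140590 for Ugt2b5 and chr5:87424204-87424453 for Ugt2b38, from RefSeq (GRCm38.p6). Capitals mark bases that differ from the aligned base of the other gene or have no partner inside the alignment.
Ugt2b5: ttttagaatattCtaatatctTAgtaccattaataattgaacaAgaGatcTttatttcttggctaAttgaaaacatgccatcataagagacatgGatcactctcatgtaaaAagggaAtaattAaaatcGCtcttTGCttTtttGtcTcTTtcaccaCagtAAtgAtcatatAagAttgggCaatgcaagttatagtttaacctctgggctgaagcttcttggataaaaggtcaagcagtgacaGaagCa
Ugt2b38: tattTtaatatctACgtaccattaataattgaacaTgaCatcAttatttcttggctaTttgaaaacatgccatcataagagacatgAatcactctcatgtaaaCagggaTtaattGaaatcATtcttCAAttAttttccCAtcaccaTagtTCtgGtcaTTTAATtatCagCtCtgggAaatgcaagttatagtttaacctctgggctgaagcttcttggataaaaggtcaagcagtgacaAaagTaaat
Of 240 aligned bases 212 were identical, 28 differed, and 2 bases of Ugt2b5 and 7 of Ugt2b38 had no partner inside the alignment. Bases beyond its ends also had no partner and are left in lower case. Over the 36 pairs among the 9 members with a window, the median was 131.5 identical bases and the second highest pair had 165. Aligned lengths differed between pairs, down to 18 bases for Ugt2a3 and Ugt2b36, so such counts do not measure alikeness alone. As a share of aligned bases, Ugt2b5 and Ugt2b38 had 88.3%. The next member pair, Ugt2b1 and Ugt3a1, had 82.5% over 120 aligned bases.

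Letters of known liver factors were searched for on both strands in those 9 windows. The HNF4 core CAAAGTCCA was in 0 of 9 and in 0.384% of all 32851 windows of the same length, and CAAAGTNCA was in 0 of 9 against 1.19%. AGGTCA, a motif of many nuclear receptors, was in 4 of 9 (Ugt2b5, Ugt2b35, Ugt2b36 and Ugt2b38) against 14.0% of all. AGTTCA, a motif of the receptors CAR and PXR, was in 1 of 9 (Ugt1a1) against 11.8%, and CAAAG, a shorter piece of the HNF4 motif, was in 4 of 9 (Ugt2a3, Ugt2b5, Ugt2b34 and Ugt2b36) against 48.6%. TTAATNATT, the centre of the palindrome bound by HNF1 factors, was in 4 of 9 (Ugt1a1, Ugt2b5, Ugt2b35 and Ugt2b38) against 1.40%, and in Ugt1a1 it overlapped GTTAAT, 1 arm of that palindrome, which was in 3 of 9 (Ugt1a1, Ugt2a3 and Ugt3a1) against 6.43%. Ugt2b5, Ugt2b35 and Ugt2b38 held both AGGTCA and TTAATNATT, and of these Ugt2b35 rose, Ugt2b38 fell and Ugt2b5 did not pass. The whole palindrome of HNF1 factors was searched for too and was in 0 of 9 against 0.00913% of all windows. Some of the 9 windows are much alike, with 88.3% of aligned bases identical for Ugt2b5 and Ugt2b38. Matches in such windows are not independent, and the shares of all windows make no allowance for this. Such a match of letters is a description and does not show binding.

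Both Ugt3 genes fell. Ugt3a2, whose human counterpart uses UDP-glucose and UDP-xylose, was at 11.10 and 11.31 under control virus and 6.68 under Cre virus. That was a 23.0-fold fall, -4.52 ± 0.14 SE (limma adjusted p = 0.0011), and 42 of the 12735 fitted genes had a lower difference. The controls differed from each other by 0.21, a small part of the gap to the Cre liver. Ugt3a1, whose human counterpart uses UDP-N-acetylglucosamine, was at 6.70 and 7.68 under control virus and 4.25 under Cre virus by its brightest probe set, 1451373_at, the last close to the median of its array. The controls were 0.97 apart here, the widest gap among the 9 genes, where the median gap was 0.09. The difference was -2.93 ± 0.44 SE (limma adjusted p = 0.0296), or -2.45 against control 1 and -3.42 against control 2. With no filter on dim genes the adjusted p was 0.0564, and with every probe set tested alone it was 0.0555. The other probe set, 1424493_s_at, was at 6.74 and 7.05 under control virus and 3.37 under Cre virus, below the filter value, so its 11.5-fold fall is of uncertain size (-3.53 ± 0.21 SE, limma adjusted p = 0.00915 over 31526 probe sets, of which 2.35% fell). Both probe sets put the Cre liver below both controls.

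Among the Ugt2 genes 3 fell. Ugt2b38 was at 8.42 and 8.55 under control virus and 4.08 under Cre virus, a measured difference of -4.41 ± 0.15 SE (limma adjusted p = 0.00135). The Cre value lay close to the filter value of 3.77 and below the median of all probe sets on its array, 4.155, so the size of this fall is uncertain. Ugt2b1, whose rat counterpart conjugates morphine and bisphenol A, was at 13.23 and 13.14 against 10.51, a 6.38-fold fall (-2.67 ± 0.10 SE, limma adjusted p = 0.00136). The 2 controls were within 0.09 of each other, and the Ugt2b1 probe set kept a clear signal in the Cre liver, as did that of Ugt3a2. Ugt2a3, whose human counterpart conjugates bile acids, was at 11.12 and 11.38 against 10.15, a 2.15-fold fall (-1.10 ± 0.15 SE, limma adjusted p = 0.0241). Its control values were 0.26 apart, and the difference was -0.97 against control 1 and -1.23 against control 2.

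In the same cluster 2 genes rose, both by a little under 1 log2 unit. Ugt2b34 was at 12.09 and 12.14 under control virus and 13.04 under Cre virus by its brightest probe set (0.93 ± 0.09 SE, limma adjusted p = 0.0125). Its second probe set, 1427960_at, was at 11.57 and 11.54 against 12.65, a difference of 1.10 ± 0.09 SE (limma adjusted p = 0.0184 over all probe sets). Both probe sets thus gave a rise. Ugt2b35 was at 11.87 and 11.82 against 12.81 (0.97 ± 0.09 SE, limma adjusted p = 0.0121). At the stricter adjusted p threshold of 0.01, neither rise and 3 of the falls remained, those of Ugt3a2, Ugt2b38 and Ugt2b1.

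Ugt2b36 and Ugt2b5 did not pass. Ugt2b36 was at 13.16 and 13.08 under control virus and 13.46 under Cre virus (0.33 ± 0.09 SE, limma adjusted p = 0.0922), above both controls by 0.29 or more. Ugt2b5 was at 13.03 and 13.02 against 12.96 (-0.07 ± 0.08 SE, limma adjusted p = 0.624). The Cre liver lay outside the controls in each of the 9 genes, as it did in 83.4% of all fitted genes. It was above both controls in 3 and below both in 6, against 49.7% and 33.6% of all fitted genes. It was 1 log2 unit or more outside both controls in 4 of them, all lower, against 3.72% of all fitted genes that were lower and 3.67% that were higher by that much (7.4% together), namely Ugt3a2, Ugt2b38, Ugt3a1 and Ugt2b1.

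**Figure D2:**
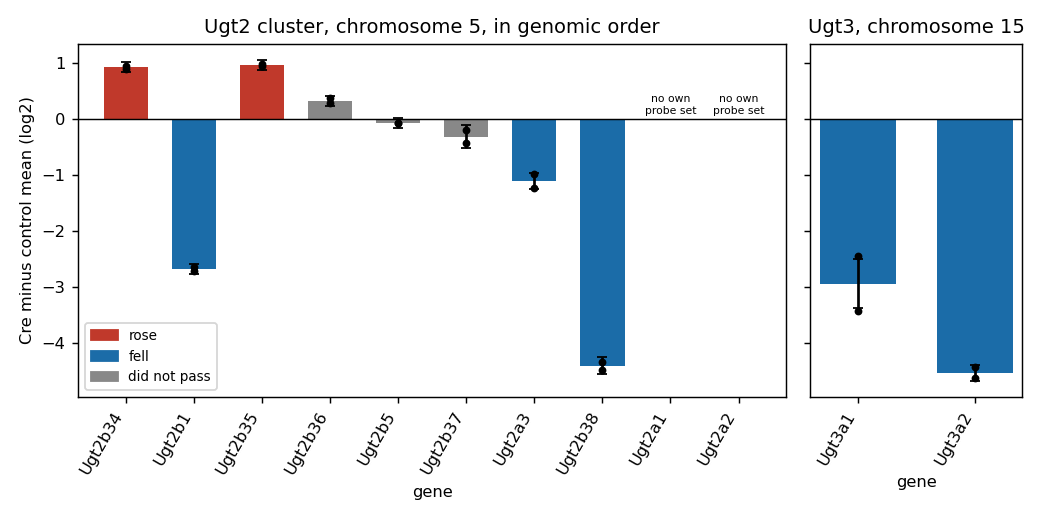
Difference between the Cre liver and the control mean (log2, y axis) for the Ugt2 genes in their order along chromosome 5 and for the Ugt3 genes of chromosome 15. Bars show the difference with its limma SE, black points the difference from each control, and colours the call. From left to right, Ugt2b34 at 0.93 is followed by Ugt2b1 at -2.67 and Ugt2b35 at 0.97, and Ugt2b38 at -4.41 stands last of the measured genes.

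Along the cluster, genes with opposite calls were neighbours. In genomic order the differences were 0.93 for Ugt2b34, -2.67 for Ugt2b1, 0.97 for Ugt2b35, 0.33 for Ugt2b36 and -0.07 for Ugt2b5. They went on with -0.31 for Ugt2b37, -1.10 for Ugt2a3 and -4.41 for Ugt2b38. Ugt2b37, which is not among the 10, was dim at 4.06 and 3.83 under control virus and 3.63 under Cre virus and did not pass (limma adjusted p = 0.361). Its upstream window shared 224 of 236 aligned bases with that of Ugt2b38. Ugt2a1 and Ugt2a2 share 1 probe set, at 2.89 and 2.57 under control virus and 2.48 under Cre virus, below the filter value throughout. Genes of this cluster are close in sequence, so a probe set can also read a neighbour, and whether the differences between neighbours exceed their error was not tested.

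**Figure D3:**
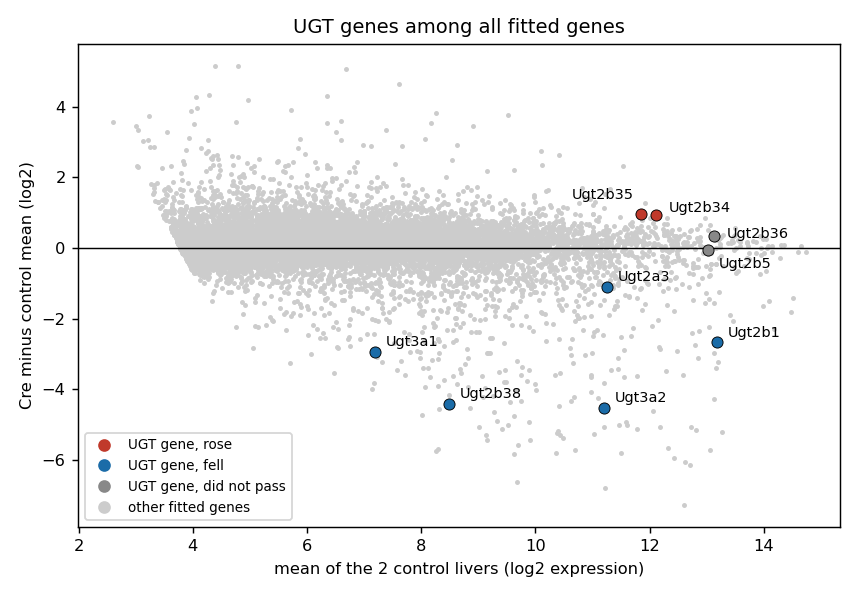
Difference between the Cre liver and the control mean (y axis, log2) against the control mean (x axis, log2 expression) for the 12735 fitted genes (grey) with the UGT genes marked by their call. Ugt3a2 (-4.52) and Ugt2b38 (-4.41) lie among the lowest points, and Ugt2b34 (0.93) and Ugt2b35 (0.97) on its upper side.

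The Ugt1a locus, which makes the bilirubin-conjugating enzyme Ugt1a1, had no probe set of 1 gene. The 3 probe sets that list 8 Ugt1a genes were all higher in the Cre liver. Probe set 1424783_a_at was at 12.07 and 12.05 under control virus and 12.75 under Cre virus, and it alone of the 3 passed (0.69 ± 0.09 SE, limma adjusted p = 0.0387 over 31526 probe sets, of which 1.94% rose and 4.29% changed either way). Probe set 1426260_a_at was at 13.11 and 13.13 against 13.62 (0.50 ± 0.08 SE, limma adjusted p = 0.0576). Probe set 1426261_s_at was at 12.31 and 12.26 against 12.77 (0.48 ± 0.09 SE, limma adjusted p = 0.0722). These sets can share targets and are not independent, and no value can be given for Ugt1a1 itself. Of the 14 other UGT symbols looked for, 2 had a probe set of their own, and 0 of the 1 fitted, Ugt2b37, passed by limma (0 at an unadjusted p under 0.05). Ugt8a, which makes galactosylceramide, was too dim for the gene fit, with 3.90 and 3.57 under control virus and 3.07 under Cre virus. Where every probe set was fitted, this one did not pass (-0.66 ± 0.22 SE).

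The counts for the gene lists around glucuronidation stand against 6.71% of all fitted genes that rose, 5.21% that fell and 11.9% either way, and their medians against 0.09. The share of all fitted genes at an unadjusted p under 0.05 was not counted. It cannot be below 11.9%, and the list counts at that cut were not compared with it. Of 12 fitted genes of UDP-sugar supply 2 rose and 2 fell, with a median of -0.03 and 5 at an unadjusted p under 0.05 by limma. Ugdh, which oxidises UDP-glucose to UDP-glucuronic acid, was at 10.94 and 11.09 under control virus and 11.97 under Cre virus (0.96 ± 0.12 SE, limma adjusted p = 0.0188). Pgm2, of the phosphoglucomutase family, rose by 1.10, and the carriers of nucleotide sugars Slc35d2 and Slc35a3 fell by 1.51 and 0.66 on the log2 scale. The calls on Pgm2 and Slc35a3 were lost in 3 and 4 of 10 other settings, with an adjusted p of up to 0.0683 and 0.073. Ugp2, which makes UDP-glucose (-0.26), and Slc35d1, which carries UDP-glucuronic acid into the endoplasmic reticulum (0.05), did not pass.

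Of 7 fitted genes that release or use free glucuronate, 4 fell (5.21% of all fitted genes fell) and 0 rose (6.71% rose), with a median of -0.92 against 0.09 over all fitted genes. By limma 5 of the 7 had an unadjusted p under 0.05 (share of all fitted genes not counted). Xylb, the xylulokinase at the end of the glucuronate and xylulose pathway, was at 9.08 and 9.14 under control virus and 5.15 under Cre virus (-3.96 ± 0.13 SE, limma adjusted p = 0.00135). Dcxr (-1.52 ± 0.12 SE) and Cryl1 (-1.01 ± 0.14 SE), enzymes of the same pathway, fell too. Gulo, the last enzyme of vitamin C synthesis in mouse, was at 10.59 and 10.69 against 9.72 (-0.92 ± 0.11 SE, limma adjusted p = 0.0205). Akr1a1, which reduces glucuronate, was at 13.01 and 13.01 against 13.00, and Rgn, a lactonase of vitamin C synthesis (0.13), and Gusb, which cleaves glucuronides in lysosomes (0.40), did not pass.

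Of 8 fitted carriers of glucuronides and other organic anions, 3 rose (6.71% of all fitted genes rose) and 2 fell (5.21% fell), with a median of 0.21 against 0.09 over all fitted genes. By limma 6 of the 8 had an unadjusted p under 0.05 (share of all fitted genes not counted). The efflux pumps Abcc3, at 9.68 and 9.88 against 11.04 (1.26 ± 0.14 SE), and Abcc2, which exports bilirubin glucuronides into bile (0.61 ± 0.10 SE), rose, as did the uptake carrier Slco1a4 (1.30 ± 0.15 SE). The uptake carriers Slco2b1 (-4.93 ± 0.13 SE) and Slco1a1 (-3.65 ± 0.11 SE) fell. The call on Abcc2 was lost in 3 of 9 other settings, with an adjusted p of up to 0.0844, and averaging its probe sets moved Slco2b1 to -2.64. Of 8 fitted genes of bilirubin formation and binding, 1 fell, the glutathione transferase Gsta2, from 11.98 and 11.37 to 9.18, and 0 rose (3 of 8 had an unadjusted p under 0.05 by limma), with a median of -0.02. The biliverdin reductases Blvra (0.07) and Blvrb (-0.30) and the heme oxygenase Hmox1 (-0.28) did not pass.

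Of 20 fitted regulators reported to act on UGT genes, which are transcription factors except for Keap1 and Pgrmc1, 4 fell and 4 rose, with a median of -0.25. By limma 13 had an unadjusted p under 0.05 (share of all fitted genes not counted). Nr1i3, the receptor CAR, which induces UGT genes in response to foreign compounds, was at 8.20 and 8.17 under control virus and 5.01 under Cre virus (-3.18 ± 0.14 SE, limma adjusted p = 0.00206). Cebpa (-1.26) and Cebpb (-1.04) fell along with Hnf4a. Hnf4a is the floxed gene itself, and it is counted among the 4 that fell and the 13. Nfe2l2, which encodes NRF2, the activator of antioxidant and conjugation genes, was at 8.86 and 8.91 against 10.14 (1.26 ± 0.12 SE, limma adjusted p = 0.0117), and 0.63 as the mean of its probe sets. Foxa3 (1.10), Nr0b2 (1.05) and Foxa1 (0.95) rose, the last with an adjusted p of up to 0.0708 in other settings. Nr1i2, the receptor PXR (0.05), Ahr (-0.04) and Nr1h4 (-0.25) did not pass. Nor did Ppara (-1.58, limma adjusted p = 0.054), which passed in 4 of 10 other settings, with an adjusted p from 0.00713 to 0.0928.

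**Figure D4:**
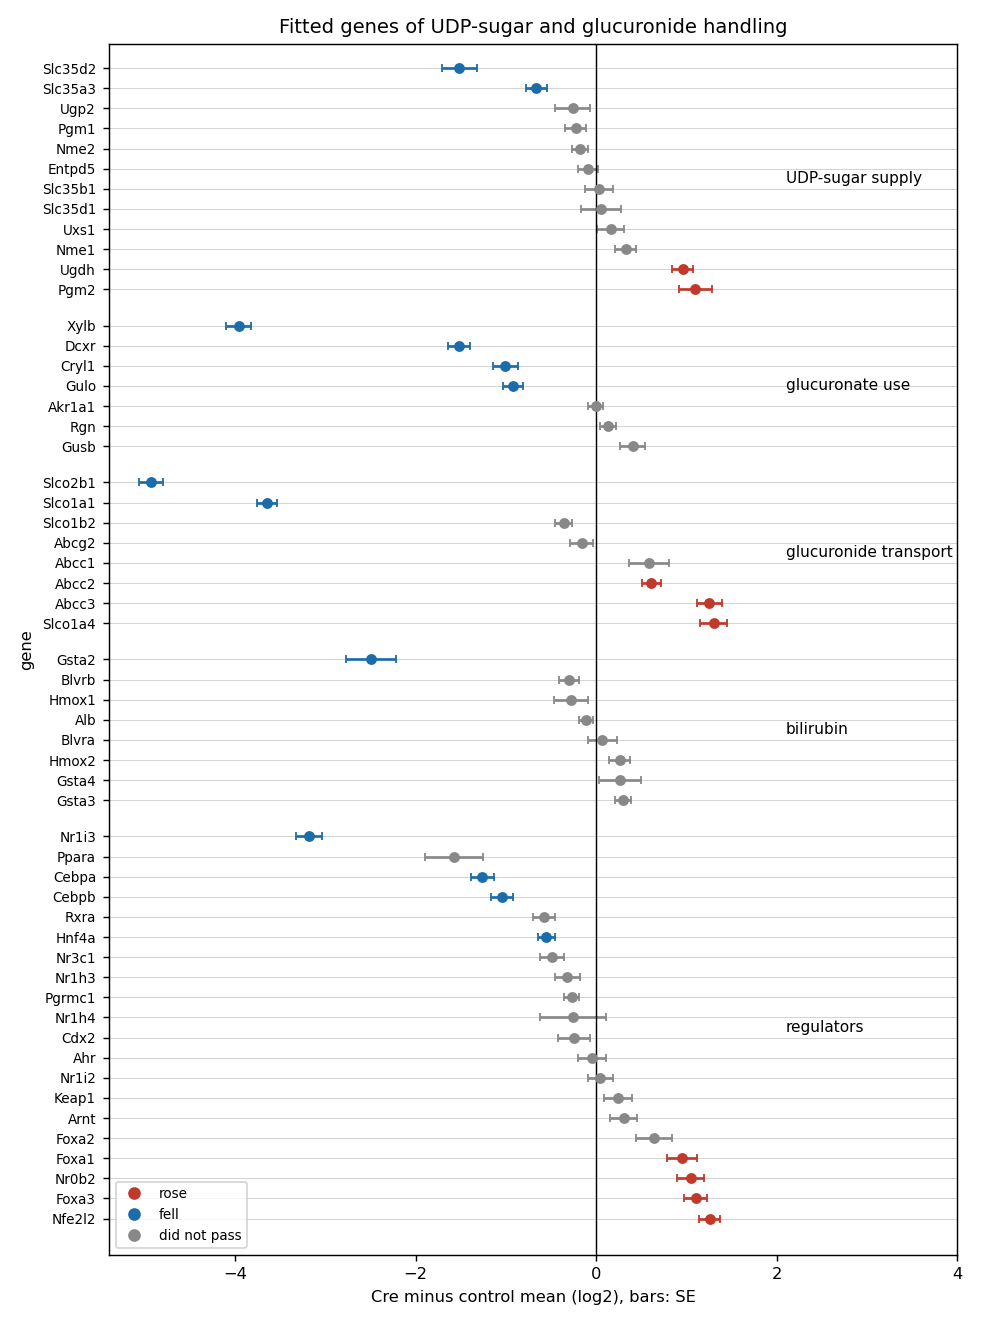
Difference between the Cre liver and the control mean (log2, x axis) with its limma SE for every fitted gene of the lists around glucuronidation (y axis), coloured by call. Slco2b1 (-4.93), Xylb (-3.96), Slco1a1 (-3.65) and Nr1i3 (-3.18) lie farthest to the left, and Slco1a4 (1.30), Nfe2l2 (1.26) and Abcc3 (1.26) farthest to the right.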

How the data were processed

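Total liver RNA (Trizol) was biotinylated by a 3′ in vitro transcription kit, per the labels' protocols, with 1 array per mouse. Each deposited value is the log2 signal of a probe set. The submitters' processing notes name Partek 6.5 and RMA. No source used here gives the log base, which was taken as 2 from the range of the values. RMA equalises the distributions of the arrays, so a shift of all genes would not show.

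Symbols came from the platform annotation and were updated by Entrez ID through RefSeq's GRCm38.p6 table. The probe set with the highest mean over the 3 arrays stood for a gene, and genes under the 30th percentile of that mean were left out. The virus groups were tested in R 4.3.3 by limma 3.58.1 (lmFit, eBayes with trend, 1 residual and 3.18 prior degrees of freedom, Benjamini-Hochberg over all fitted genes, two-sided). The fit takes the spread of the single Cre array to equal that of the controls. Probe sets were also fitted singly, 31526 in all, with a filter value of 3.168. The labels call the controls biological replicates. The fit was tested on simulated data.

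The members, the gene lists and the motifs were chosen with earlier results of these data known. Text names all members, Hnf4a, other UGT genes, list genes past the threshold and those needed to describe a list. Upstream windows came from RefSeq and were aligned pairwise with Biopython 1.88. Python 3.11.15 and matplotlib 3.10.9 made the figures. Alternatives covered the moderation, the filter, the scaling, the choice of probe set, each control left out, and the thresholds.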

Additional observations from a re-analysis of the deposited data

How the results depend on the processing

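At an adjusted p threshold of 0.01, 0 UGT genes rose, 3 fell and 5 pathway genes passed, against 2, 5 and 22. The 22 include Hnf4a itself, and 11.9% of all fitted genes passed at 0.05. Pathway genes here are those of UDP-sugar supply, glucuronate use, carriers, bilirubin and regulators (12, 7, 8, 8 and 20 fitted). Shares of all fitted genes were not counted at 0.01, nor at the fold of 0.5 log2 units given below. Without probe sets of suffix s, x or a, 13 pathway genes passed, and of all 11614 genes fitted there 471 rose and 452 fell. Of the calls lost there, Pgm2, Slc35a3, Foxa1 and Hnf4a were still tested, with an adjusted p of 0.0528, 0.0541, 0.0532 and 0.184, and the cause was not tested. Xylb, Abcc2, Gsta2, Nr1i3 and Foxa3 gave no value. At a fold of 0.5 log2 units, 7 UGT genes lay outside both controls, against 4. With control 1 or control 2 left out that count ranged from 4 to 5. No fit was possible with 1 control left, since no residual degree of freedom remained, so these give values without a test. Among the UGT genes, only the call on Ugt3a1 was lost in any of the 10 other fits. Over all fitted genes 855 rose and 663 fell. With no filter 446 rose and 509 fell, without the suffixed probe sets 471 rose and 452 fell, and after quantile normalization 1192 rose and 1007 fell. No paired analysis was possible because the Cre virus group has 1 mouse and no replicate number. The 3 arrays limit the precision, and values near 3.77 have little signal over background.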
